A study of Homo sapiens with 32 samples.

Results

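Cancer-testis antigens are proteins made in germ cells of the testis and, out of place, in many tumours. Here the families MAGEA, MAGEB, MAGEC, GAGE, PAGE, XAGE, SSX, CTAG, SPANX, SAGE1 and PRAME were followed in K-562 cells, a suspension line from human chronic myeloid leukemia. Genes were taken by the start of their symbol, and 13 of the 14884 measured genes met the rule, carried by 19 of the 53617 array features. They were 7 GAGE genes (GAGE10, GAGE12C, GAGE12G, GAGE12H, GAGE12J, GAGE13 and GAGE2A), CTAG1A, CTAG2, SAGE1, PRAME, SPANXA2-OT1 and CTAGE1. SPANXA2-OT1 is an RNA that overlaps a SPANX gene and not a SPANX protein gene, and CTAGE1 belongs to another family and shares only the spelling. No feature with 1 gene symbol was found for the MAGEA, MAGEB, MAGEC, PAGE, XAGE or SSX families, which are not analysed here. The annotation of GRCh38.p14 lists 114 genes with these symbol starts, pseudogenes included, so the 13 are a small share.

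Expression was compared in 4 groups of 8 arrays, all of the same cell line: treatment-naive cells, and cells resistant to 0.5 µM imatinib (low imatinib), to 2 µM imatinib (high imatinib) or to 0.1 µM nilotinib. Imatinib and nilotinib inhibit the fusion kinase, made from the BCR and ABL1 genes, that drives this leukemia. Resistance was reached through stepwise increases in drug concentration. Each resistance had 2 biological replicates, called lines 1 and 2, with 4 technical arrays each, and the naive arrays form 2 sets of 4 with the unexplained letters S and K. The growth text is shared by every sample and names medium without either drug, so drug presence at harvest is unclear.

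Most of these genes lie on the X chromosome, and the GAGE genes form a tandem array of near-identical copies on its short arm. In somatic cells such genes are usually kept silent by methylation of CpG sites in their promoters, and tumour cells can lose that silencing. Their products are small acidic proteins (GAGE), targets of T cells (CTAG1A, which with its copy CTAG1B encodes NY-ESO-1, and CTAG2), or, for PRAME, a substrate receptor of a ubiquitin ligase that also represses retinoic acid signalling. PRAME lies on chromosome 22 and is often found in leukemia cells.

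RefSeq promoters (GRCh38.p14) were on hand for 10 of the 13 genes. The 250 bases before the start are shown for GAGE13, which stands for the copies that varied together, for GAGE10, which did not vary with them, and for SAGE1 and PRAME, whose levels moved in other ways. Capitals mark CpG sites. GAGE13 is at chrX:49331332-49331581 (plus strand), GAGE10 at chrX:49303396-49303645 (plus strand), SAGE1 at chrX:135893466-135893715 (plus strand) and the first of the 3 listed PRAME starts at chr22:22559266-22559515 (minus strand).
GAGE13: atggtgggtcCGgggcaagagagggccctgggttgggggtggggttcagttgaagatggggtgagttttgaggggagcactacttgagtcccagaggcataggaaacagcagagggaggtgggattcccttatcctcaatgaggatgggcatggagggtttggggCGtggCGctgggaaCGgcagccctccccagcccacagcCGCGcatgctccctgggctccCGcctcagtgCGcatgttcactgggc
GAGE10: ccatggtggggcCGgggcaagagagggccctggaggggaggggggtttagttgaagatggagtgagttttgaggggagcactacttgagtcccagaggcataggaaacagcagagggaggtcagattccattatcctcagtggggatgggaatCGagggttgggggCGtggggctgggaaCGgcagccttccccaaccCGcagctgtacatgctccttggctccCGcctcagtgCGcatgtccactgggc
SAGE1: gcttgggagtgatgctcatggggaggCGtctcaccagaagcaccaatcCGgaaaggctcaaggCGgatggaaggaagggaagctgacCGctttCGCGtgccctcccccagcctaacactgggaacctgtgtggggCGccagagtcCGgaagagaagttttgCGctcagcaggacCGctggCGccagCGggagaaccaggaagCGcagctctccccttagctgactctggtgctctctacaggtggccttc
PRAME: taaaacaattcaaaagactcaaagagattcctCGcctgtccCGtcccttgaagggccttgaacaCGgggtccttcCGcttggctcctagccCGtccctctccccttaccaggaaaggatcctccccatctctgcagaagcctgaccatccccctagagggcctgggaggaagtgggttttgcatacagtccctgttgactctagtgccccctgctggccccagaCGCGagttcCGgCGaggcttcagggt

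The GAGE12J, GAGE12C, GAGE12H and GAGE2A windows were letter for letter that of GAGE13, and over the 15 pairs among these 5 and GAGE12G identity ran from 97.6% to 100%. The 97.6% is that of GAGE12G, whose window is shifted by a few bases. Its 247 letters in common with the GAGE13 window were all identical, and only the ends were unmatched. GAGE10 shared 88.2% to 88.9% of positions with the 6 others. The GAGE13 window held 8 CpG sites, and 56.3% of the 35116 RefSeq promoters hold as many. GAGE10 held 7, the first PRAME start 9 and SAGE1 13, beside a median of 11. On either strand, the letters CCGGAAG (an ETS-type motif) occurred 1 time in the SAGE1 window and not in those of GAGE or PRAME, and 8.52% of all windows of this length hold them. The letters CACGTG (an E-box) were in none of these windows, but occurred 1 time in each of the 7 GAGE genes once the first 50 transcribed bases were added, and 7.26% of all windows of 300 bases hold them. No match overlapped another. These are matches of letters, and methylation and factor binding were not measured.

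The GAGE genes were lower in some resistant lines and not in others. In bulk arrays, fewer cells with the transcript and less transcript per cell cannot be told apart. In GAGE13 the naive sets S and K read 10.08 ± 0.01 and 10.12 ± 0.21 (log2 intensity, SD over 4 technical arrays). Low-imatinib line 1 read 10.79 ± 0.22 and line 2 read 7.86 ± 0.05, high-imatinib line 1 read 9.29 ± 0.05 and line 2 read 8.52 ± 0.11, and nilotinib line 1 read 7.37 ± 0.13 and line 2 read 10.55 ± 0.09. Nilotinib line 1, low-imatinib line 2 and both high-imatinib lines thus lay below every naive array, while low-imatinib line 1 and nilotinib line 2 lay above every naive array. The arrays of neighbours in this order overlapped only between the naive sets and between nilotinib line 2 and low-imatinib line 1. Over the 8 sets the GAGE13 means spanned 3.43, a range that 0.531% of all genes matched or passed.

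The other copies followed the same order with small departures. GAGE12G read 10.26, 10.23, 10.58, 8.23, 9.54, 8.81, 7.65 and 10.50 in naive S, naive K, low-imatinib lines 1 and 2, high-imatinib lines 1 and 2, and nilotinib lines 1 and 2. In the same order, GAGE2A read 10.08, 9.92, 10.42, 8.04, 9.33, 8.56, 7.37 and 10.18, and GAGE12J read 9.31, 9.33, 9.62, 7.62, 8.62, 7.99, 6.82 and 9.56. In all 3 copies nilotinib line 1 was lowest and low-imatinib line 1 highest. GAGE12H read 9.80, 9.73, 10.01, 8.48, 9.11, 8.46, 7.37 and 9.75, with low-imatinib line 2 and high-imatinib line 2 level. GAGE12C read 10.83, 10.28, 10.43, 9.50, 10.07, 9.43, 8.12 and 10.05, and in this copy naive S was highest. The 6 genes share near-identical sequence, so array probes for 1 copy can bind transcripts of another, and the 6 values are not 6 independent measurements. Pearson's r over the 8 set means was 0.86 to 1.00 in the 15 pairs, a description of 8 points that share arrays. GAGE12C was read from the brightest of its features, and 3 others held values identical to each other. These 3 read 9.78, 9.71, 10.13, 8.03, 9.12, 8.41, 7.33 and 9.72, with low-imatinib line 1 highest and the naive sets level. The departures of GAGE12C from the other copies thus rest on its brightest feature.

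**Figure D1:**
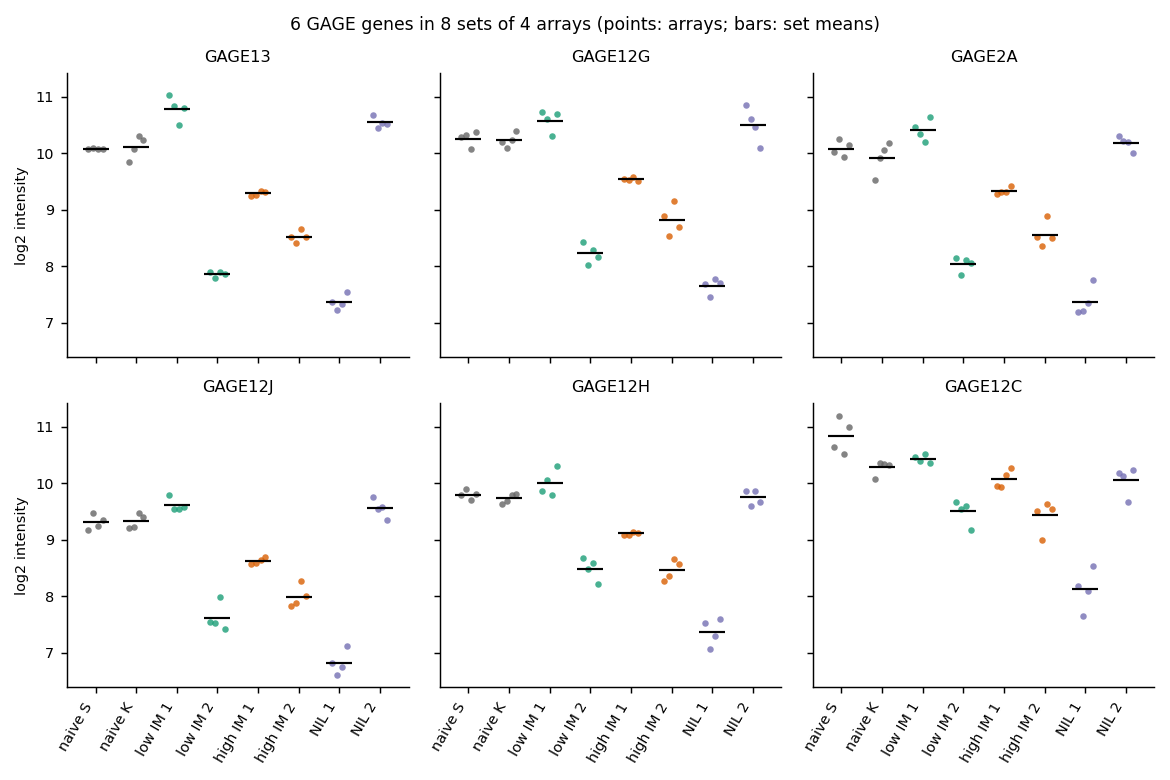
Log2 intensity (vertical axis) of 6 GAGE genes in the 8 sets (horizontal axis; IM, imatinib; NIL, nilotinib; 1 and 2, lines), with a point for each of 4 technical arrays and a bar at the set mean. Low-imatinib line 2, both high-imatinib lines and nilotinib line 1 sit below the naive sets, as in GAGE13 (7.86, 9.29, 8.52 and 7.37 against 10.08 and 10.12). In GAGE13 low-imatinib line 1 and nilotinib line 2 do not. Nilotinib line 2 does in GAGE12C (10.05), which is read from its brightest feature.

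The median difference of the 6 copies from the naive mean was -2.55 in nilotinib line 1 (5.84-fold lower), -1.83 in low-imatinib line 2 (3.56-fold lower), -1.38 in high-imatinib line 2 (2.6-fold lower) and -0.68 in high-imatinib line 1 (1.61-fold lower). It was 0.32 in low-imatinib line 1 and 0.21 in nilotinib line 2. All 4 arrays lay below all 8 naive arrays for 6 of 6 copies in low-imatinib line 2 (7.57% of all genes did so), in high-imatinib line 2 (5.69%) and in nilotinib line 1 (12%), and for 5 of 6 in high-imatinib line 1 (5.68%), where GAGE12C overlapped. None of the 6 did so in low-imatinib line 1 (4.79%) or nilotinib line 2 (6.02%). There, all 4 arrays lay above all 8 naive arrays for GAGE12J and GAGE13 in low-imatinib line 1 (16.1% of all genes) and for GAGE13 in nilotinib line 2 (18.1%).

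GAGE10 stood apart from the other copies. It read 5.24, 4.94, 4.74, 4.78, 5.17, 5.04, 4.83 and 4.90 in the same order of sets, a span of 0.50 that 71.8% of all genes matched or passed. Its differences between lines of a group did not pass the test, with adjusted p of 0.95 under low imatinib, 0.803 under high imatinib and 0.892 under nilotinib. No detection calls were used, so whether these low readings lie above background is unknown.

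SAGE1, a testis antigen first found in sarcoma, was the 1 gene of the 13 with all 6 resistant lines below both naive sets. Naive S and K read 7.75 ± 0.15 and 7.46 ± 0.47. Low-imatinib lines 1 and 2 read 5.30 ± 0.12 and 5.74 ± 0.15, high-imatinib lines 1 and 2 read 4.72 ± 0.14 and 5.46 ± 0.17, and nilotinib lines 1 and 2 read 4.77 ± 0.43 and 6.10 ± 0.04. The lowest naive array, at 6.96, was above the highest resistant array, at 6.14. The share of all genes with this separation over all lines was not counted. By single line, all 4 arrays lay below all 8 naive arrays in 4.79% (low-imatinib line 1) to 12% (nilotinib line 1) of all genes. By line, SAGE1 was 4.92-fold and 3.66-fold lower than the naive mean under low imatinib, 7.41-fold and 4.41-fold lower under high imatinib, and 7.11-fold and 2.85-fold lower under nilotinib. All 6 line means lay below both naive sets in 15.9% of all genes. Among resistant lines the arrays of neighbours in the order of levels overlapped, except that nilotinib line 2 lay above all the others. SAGE1 reads in the dimmest 40% of genes, so if the resistant lines are at background the fold is understated.

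PRAME ran opposite to the GAGE copies in most lines. It read 10.49 ± 0.10 in naive S, 10.42 ± 0.19 in naive K, 10.40 ± 0.12 and 11.46 ± 0.04 in low-imatinib lines 1 and 2, 10.65 ± 0.05 and 11.40 ± 0.06 in high-imatinib lines 1 and 2, and 12.11 ± 0.07 and 10.92 ± 0.13 in nilotinib lines 1 and 2. Its level was 3.14-fold that of the naive mean in nilotinib line 1, 2.0-fold in low-imatinib line 2 and 1.93-fold in high-imatinib line 2. In these 3 lines and in nilotinib line 2 (1.39-fold), all 4 arrays lay above all 8 naive arrays, as they did for 26.9%, 20.1%, 19.3% and 18.1% of all genes. Low-imatinib line 1 and high-imatinib line 1 overlapped the naive arrays. Nilotinib line 2 was an exception to the opposite course. There PRAME lay 0.47 above the naive mean and the median of the GAGE copies 0.21 above it. Over the 8 set means, Pearson's r between PRAME and the median of the 6 GAGE copies was -0.94 and Spearman's rho -0.83. Without the 2 sets farthest from the GAGE median (low-imatinib line 2 and nilotinib line 1) r was -0.81. The 8 points include sets of 1 group and share their arrays between both genes, so this describes these sets only. SAGE1 gave r of 0.53 with the GAGE median and -0.52 with PRAME.

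**Figure D2:**
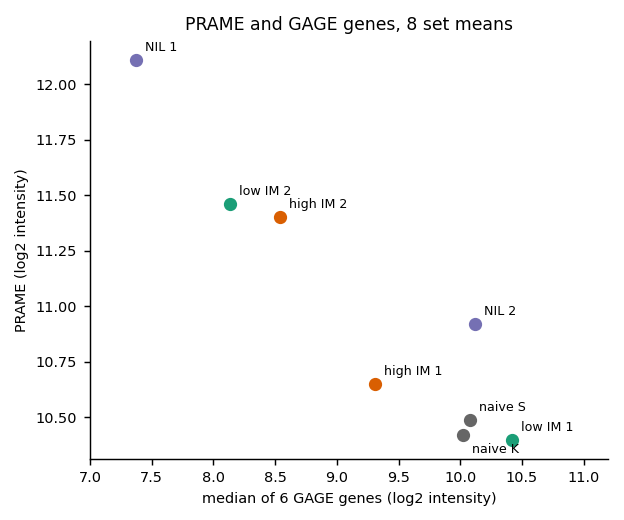
PRAME against the median of 6 GAGE copies, both as log2 intensity, with a point for each of the 8 set means, coloured by group. PRAME is highest (12.11) where the GAGE median is lowest (7.37), in nilotinib line 1, and lowest (10.40) where the GAGE median is highest (10.42), in low-imatinib line 1.

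The CTAG genes stayed in a narrow range apart from high-imatinib line 2. CTAG2 read 6.31, 6.78, 6.42, 6.53, 6.31, 7.37, 6.34 and 6.36 in the order of sets above, with SD over arrays from 0.10 to 0.38. Only in high-imatinib line 2 did all 4 arrays of CTAG2 lie above all 8 naive arrays, as they did for 19.3% of all genes. Its level in that line was 1.77-fold that of the naive mean. CTAG1A read 6.65, 7.01, 6.46, 6.48, 6.53, 7.06, 6.24 and 6.43, and its high-imatinib line 2 lay level with naive K. CTAG1A has a near-identical copy, CTAG1B, that these features cannot be assumed to tell apart. The r of 0.83 between CTAG1A and CTAG2 over 8 sets fell to -0.07 without high-imatinib line 2 and naive K. CTAGE1 read between 5.47 and 6.12 and SPANXA2-OT1 between 4.31 and 4.86 over the 8 sets.

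**Figure D3:**
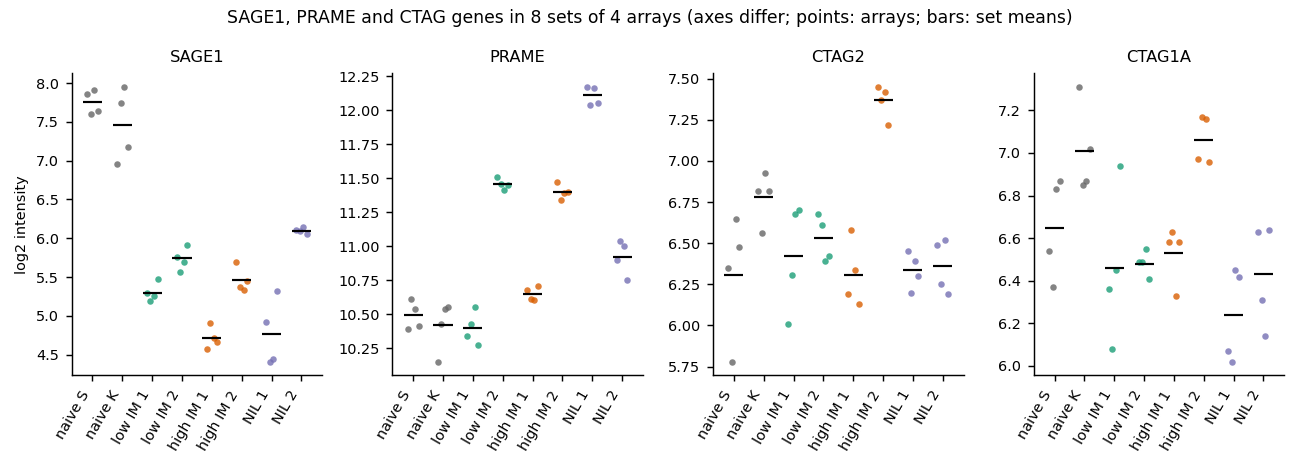
Log2 intensity of SAGE1, PRAME, CTAG2 and CTAG1A in the 8 sets (each panel has its own vertical axis), with a point for each of 4 technical arrays and a bar at the set mean. SAGE1 is lower in all 6 resistant lines, PRAME is highest in nilotinib line 1 (12.11), and CTAG2 is highest in high-imatinib line 2 (7.37).

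**Figure D4:**
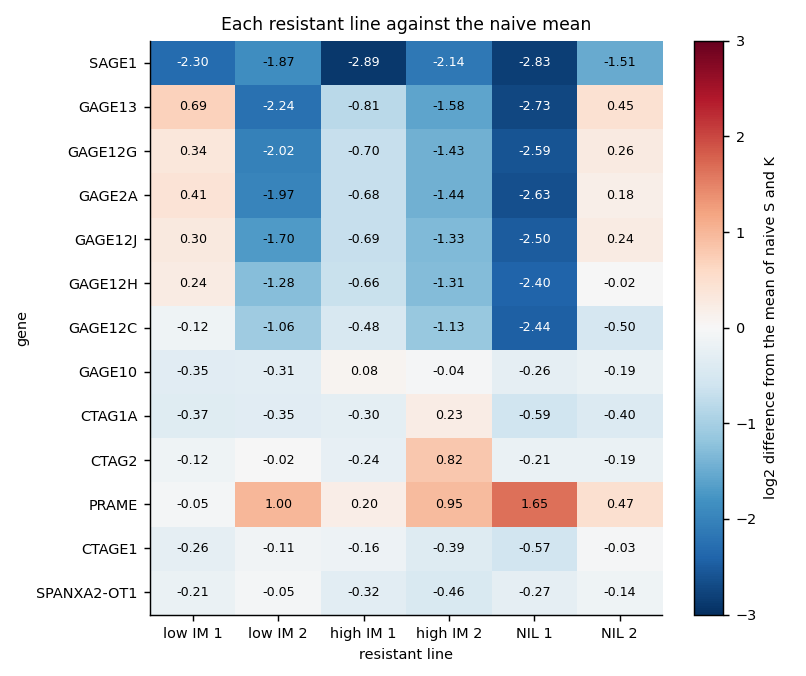
Log2 difference of each resistant line (columns) from the mean of naive S and K for the 13 genes (rows), as a colour and a printed value. SAGE1 is negative in all 6 lines, from -2.89 to -1.51, the 6 similar GAGE copies split by line, and CTAGE1 and SPANXA2-OT1 lie between -0.57 and -0.03.

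When the lines were taken as replicates of resistance, 1 of the 13 genes passed. In all 6 resistant lines against the 2 naive sets, SAGE1 differed by -2.26 ± 0.36 on the log2 scale (95% interval -3.12 to -1.40, 4.78-fold lower, adjusted p = 0.0353 in limma over all genes). Of all genes 3.72% passed, 0.504% downward, and 29.8% had an unadjusted p under 0.05, as had SAGE1 alone of the 13. PRAME differed by 0.70 ± 0.40 (interval -0.23 to 1.64, adjusted p = 0.263). The 6 GAGE copies differed by -1.04 to -0.90, with standard errors of 0.51 to 0.97 and adjusted p of 0.246 to 0.474. Leaving out 1 set moved them to between -1.57 and -0.49, and GAGE13 to -0.51 without nilotinib line 1, -0.55 without low-imatinib line 2 and -1.57 without nilotinib line 2. In 5 of the 6 copies the low-imatinib lines, and in 4 the nilotinib lines, lay on opposite sides of the naive mean. The median difference was -0.90 over the 13 genes and -0.03 over all genes. SAGE1 lost its call without naive S, naive K, low-imatinib line 1 or low-imatinib line 2. Nearly all genes that had passed lost their calls there too. Each of these fits leaves 1 set in a group. Over the sets left out SAGE1 differed by -2.48 to -2.04, and 6 of 6 lines were lower. The first principal component of technical arrays about their set means, called the technical axis, had scores of -20.8 and -25.1 for naive cells and -2.13 to 21.2 in the resistant lines. With it taken out, SAGE1 differed by -2.40 (adjusted p = 0.12).

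By resistance, none of the 13 genes passed. Against naive cells SAGE1 differed by -2.09 ± 0.44 under low imatinib (adjusted p = 0.0881), by -2.52 ± 0.44 under high imatinib (adjusted p = 0.131) and by -2.17 ± 0.44 under nilotinib (adjusted p = 0.0575). The share of all genes that passed was 0%, 0% and 0.443%, and 1, 2 and 1 of the 13 had an unadjusted p under 0.05, as did 21.6%, 15.2% and 31.9% of all genes. PRAME differed by 0.48 ± 0.48 (adjusted p = 0.576), 0.57 ± 0.48 (adjusted p = 0.579) and 1.06 ± 0.48 (adjusted p = 0.178). Without line 1 or line 2 of the resistance, PRAME differed by 1.00 or -0.05 under low imatinib, 0.95 or 0.20 under high imatinib and 0.47 or 1.65 under nilotinib. The GAGE copies differed by -0.84 to -0.52, by -1.19 to -0.80 and by -1.47 to -1.13. Without low-imatinib line 2 the low-imatinib difference of GAGE13 became 0.69, and without nilotinib line 1 its nilotinib difference became 0.45, so each mean turned on 1 line. Between the resistances 0 of the 13 genes and 0% of all genes passed in the 3 comparisons, and 1, 0 and 0 of the 13 had an unadjusted p under 0.05, as had 4.85%, 6.91% and 6.34% of all genes for high against low imatinib, nilotinib against low imatinib and nilotinib against high imatinib.

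Differences between lines of the same resistance were set against the spread of technical arrays only, so they compare 2 lines and not conditions. In low imatinib 7 of the 13 genes passed (18.7% of all genes did), and 6 with a difference of at least 1 on the log2 scale (1.06%). All 6 GAGE copies were higher in line 1 (9.96% of all genes) by 0.93 to 2.93, with GAGE13 higher by 2.93 ± 0.10 (7.63-fold, adjusted p = 6.82e-21, limma). PRAME was lower in line 1 (8.77% of all genes), at -1.06 ± 0.09 (2.08-fold, adjusted p = 1.03e-10). SAGE1 did not pass, at -0.43 ± 0.17 (adjusted p = 0.0692).

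Under high imatinib 10 of the 13 genes passed, among 33% of all genes. The 6 GAGE copies were higher in line 1 (13.2% of all genes) by 0.63 to 0.77. The 4 lower in line 1 (19.8%) were PRAME (-0.75 ± 0.09, adjusted p = 2.63e-08), SAGE1 (-0.75 ± 0.17, adjusted p = 0.000546), CTAG1A (-0.54 ± 0.15, adjusted p = 0.00417) and CTAG2 (-1.06 ± 0.15, adjusted p = 5.12e-07). CTAG2 was the 1 gene with a difference of at least 1, as had 5.6% of all genes.

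Under nilotinib the order of the GAGE copies was turned. Here 9 of the 13 genes passed, among 27.6% of all genes, and 8 with a difference of at least 1 (3.8%). The 6 copies were among 8 genes lower in line 1 (11.5% of all genes), from -3.18 to -1.93, and GAGE13 led with -3.18 ± 0.10 (9.05-fold, adjusted p = 1.38e-22). PRAME was higher in line 1 (16.1%) by 1.19 ± 0.09 (2.28-fold, adjusted p = 1.06e-12), while SAGE1 (-1.32 ± 0.17, adjusted p = 1.12e-07) and CTAGE1 (-0.55 ± 0.18, adjusted p = 0.0199) were lower. The arrays of CTAGE1 in nilotinib line 1 read 5.84, 4.64, 5.67 and 5.74, so its difference leaned on 1 low technical array. Between naive S and K 2 genes passed, among 12.4% of all genes: CTAG2 at -0.47 ± 0.15 (adjusted p = 0.0342) and GAGE12C at 0.56 ± 0.16 (adjusted p = 0.0225). The GAGE12C call is that of its brightest feature, and its 3 identical features read 9.78 in naive S and 9.71 in naive K. The other 5 similar GAGE copies and PRAME did not.

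**Figure D5:**
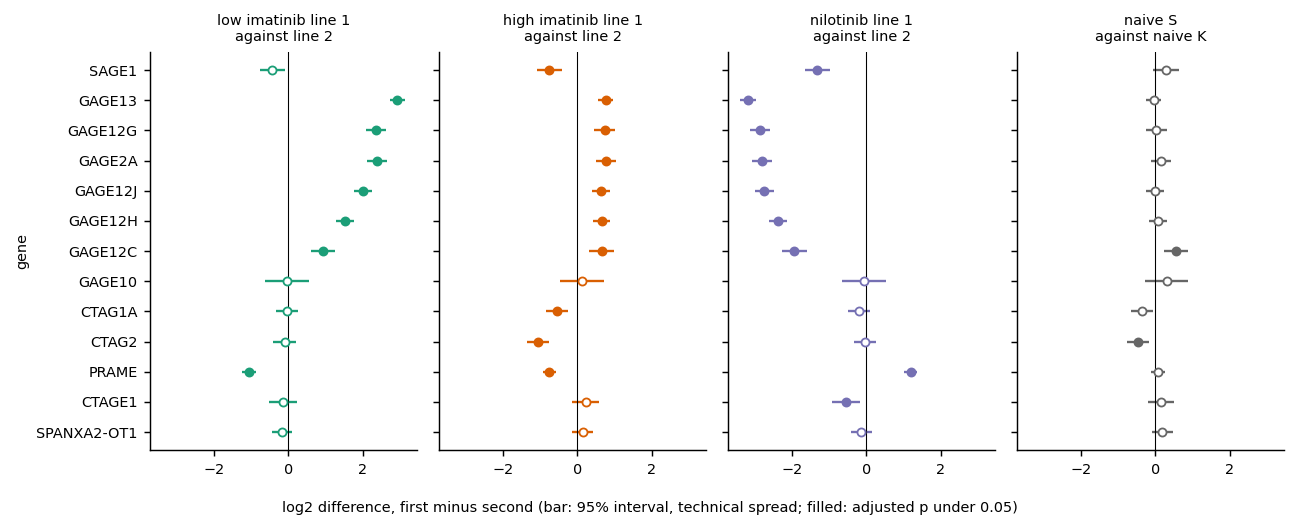
Log2 difference between the 2 sets of a group (first minus second, horizontal axis) for the 13 genes, with 95% intervals from the spread of technical arrays and filled points where the adjusted p is under 0.05. The 6 similar GAGE copies are to the right in both imatinib panels (up to 2.93), to the left in the nilotinib panel (down to -3.18) and, GAGE12C aside, near 0 between the naive sets, and PRAME is on the side away from them in all 3 resistance panels.

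The genes beside these loci were read as well. No measured gene of another family lies within the GAGE cluster. The nearest measured genes outside it, taken after their values were seen, were FOXP3, a transcription factor of regulatory T cells, and USP27X-DT, a non-coding RNA. They spanned 0.45 and 0.54 over the 8 sets, against 2.64 to 3.43 in the 6 copies, and differed between resistant and naive cells by -0.27 ± 0.11 (adjusted p = 0.144) and -0.01 ± 0.17 (adjusted p = 0.963). Beside SAGE1, INTS6L and MMGT1 differed by 0.43 ± 0.20 (adjusted p = 0.203) and 0.52 ± 0.22 (adjusted p = 0.17), so neither shared the fall of SAGE1 from naive cells. Under high imatinib, line 1 minus line 2 was -0.63 (adjusted p = 0.000305) in INTS6L and -0.80 (adjusted p = 5.65e-07) in MMGT1, beside -0.75 in SAGE1. Under low imatinib it was 0.39 and 0.29, beside -0.43 in SAGE1. Under nilotinib it was 0.36 and 0.22, beside -1.32 in SAGE1. Beside PRAME, ZNF280A read 7.96 and 8.15 in the naive sets and 7.94, 8.93, 8.86, 8.69, 9.28 and 9.11 in the lines. Between resistant and naive cells ZNF280A differed by 0.75 ± 0.24 (adjusted p = 0.107), beside 0.70 ± 0.40 (adjusted p = 0.263) in PRAME. GGTLC2 differed by 0.12 ± 0.13 (adjusted p = 0.543). ZNF280A was, like PRAME, higher in low-imatinib line 2 than in line 1 (line 1 minus line 2 -0.98, adjusted p = 3.22e-08). Its high-imatinib lines differed by 0.17 (adjusted p = 0.263), beside -0.75 in PRAME. Its nilotinib lines differed by 0.17 (adjusted p = 0.273), beside 1.19 in PRAME. BCR, with 3 measured genes between it and PRAME, read 8.85 in nilotinib line 1 and 7.67 in line 2, a difference of 1.18 (adjusted p = 4.68e-11), where PRAME differed by 1.19. In the imatinib lines BCR differed by -0.20 (adjusted p = 0.19) under low imatinib, where PRAME differed by -1.06, and by -0.38 (adjusted p = 0.00389) under high imatinib, where PRAME differed by -0.75.

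Other genes of the same biology were counted from lists. Their calls against naive cells rest on the fit in which leaving out either naive set or either low-imatinib line removed nearly all calls. Of 78 measured cancer-testis genes outside these families (113 listed), 3 rose and 0 fell in resistant against naive cells, a share of 3.85% beside 3.72% of all genes (3.21% upward), so it was near the background. They were KNL1, a kinetochore scaffold (1.38 ± 0.20, adjusted p = 0.0335), TTK, a spindle checkpoint kinase (0.69 ± 0.11, adjusted p = 0.0352), and DCAF12, a substrate receptor of a ubiquitin ligase (0.74 ± 0.13, adjusted p = 0.0428). The first pair act in cell division in all dividing cells. Of 14 PRAME-like genes 0 passed, with a median of -0.35 and PRAMEF12 at -0.42 ± 0.10 (adjusted p = 0.0585), and of 4 ubiquitous MAGE genes 0 passed. Among 558 other X-linked genes 1.79% passed, below the 3.72% of all genes, 7 higher and 3 lower, with a median of -0.08.

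Of 41 measured genes for DNA methylation and gene silencing (54 listed), 3 rose and 0 fell, which is 7.32% of the list beside 3.72% of all genes (3.21% upward). CBX5, a heterochromatin protein, differed by 0.65 ± 0.11 (adjusted p = 0.0373), SUV39H2, a histone methyltransferase, by 1.05 ± 0.18 (adjusted p = 0.0373), and MBD4, a DNA repair glycosylase that binds methylated DNA, by 0.73 ± 0.14 (adjusted p = 0.0474). The list's median was 0.39, beside -0.03 over all genes. SUV39H2 read 7.01 and 6.58 in the naive sets and 7.77, 7.88, 7.98, 7.75, 8.07 and 7.60 in the lines. Like SUV39H2, CBX5 and MBD4 lay above both naive sets in every resistant line, as did 17% of all genes. These 3 genes were named because they passed upward in the same comparison. The part of these genes in the GAGE levels was not tested. Between lines 1 and 2 36.6%, 61.0% and 48.8% of the list passed in low imatinib, high imatinib and nilotinib, beside 18.7%, 33% and 27.6% of all genes. Of 19 measured partner proteins, DCAF12 and SP3, a transcription factor (0.53 ± 0.11, adjusted p = 0.0483), rose, which is 10.5% of the list beside the same 3.72%.

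Arrays of the same set correlated at 0.952 to 0.991 across genes. Of 16 markers of K-562 cells 7 were measured. Their mean level was 7.47 to 7.71 in the naive sets and 7.79 to 8.36 in the resistant lines. In all resistant lines against naive, GFI1B and TAL1 passed upward, 28.6% of the 7 beside 3.72% of all genes (3.21% upward). Not every marker rose. LMO2 read 7.29 and 7.55 in the naive sets and 7.16, 7.76, 7.10, 7.01, 6.83 and 7.95 in the lines. The 6 germ cell markers had list means of 5.49 to 5.57 in the naive sets and 5.17 to 5.48 in the lines. The part of these shifts in the SAGE1 result was not tested. Markers of T cells, myeloid, epithelial and fibroblast cells (2, 3, 4 and 2 measured) gave no call in that comparison, and none of the B cell markers was measured. Between lines 1 and 2, where the GAGE copies differed, 3, 4 and 4 of the 7 K-562 markers passed under low imatinib, high imatinib and nilotinib. So did 1 of 3 myeloid and 1 of 4 epithelial markers each time and 0 of the T cell, fibroblast and germ cell markers. Of all genes 18.7%, 33% and 27.6% passed in these comparisons. LYZ, which encodes lysozyme, read 6.37 and 5.90, 7.45 and 6.16, and 6.57 and 8.35 in lines 1 and 2 of the 3 resistances, on the same side as the GAGE copies in all 3. EPCAM, an adhesion molecule of epithelial cells, read 9.26 and 8.25, 5.86 and 7.87, and 5.97 and 8.59, on the same side under low imatinib and nilotinib and on the other under high imatinib. The other measured markers of the myeloid and epithelial lists differed less between lines and did not all lie on the GAGE side. Under low imatinib, CD14 (5.53 and 5.69) and KRT18 (9.82 and 9.93) were lower in line 1. LYZ and EPCAM were named after their values were seen, and the part of these markers in the GAGE differences was not tested.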

How the data were processed

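RNA from 32 K-562 samples was measured on 1 GeneChip array each, per the labels. The authors deposited 1 summarised intensity per feature and array, which runs from 1.24 to 14.2 and was taken as log2, since no label states the base. Transcriptome Analysis Console 4.0 is named in the submitters' processing notes, with no normalization method. The median of an array was 5.85 to 6.11.

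Genes with more than 1 feature were read from their brightest feature (mean of 32 arrays), and 37519 unnamed features entered 1 alternative only. Comparisons of groups used limma 3.58.1 (R 4.3.3) on the mean of each set's 4 arrays, with 4 residual degrees of freedom. Comparisons within a group used the 32 arrays, with 24. Errors after ± are standard errors in tests and SD over technical arrays in levels, and intervals are at 95%. P-values were adjusted by Benjamini-Hochberg over 14884 genes, with a threshold of 0.05. The number of arrays limits the precision. The fits were tested on simulated data.

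The genes and lists were chosen with earlier results of these data known. Values in all 8 sets are given for members that passed between groups or spanned at least 1 (log2), and for SAGE1 and PRAME; GAGE10 and CTAG1A were added after their values were seen. From the other lists, each gene that passed, up to 5, and otherwise that with the smallest adjusted p, could be named. Line numbers were not used to pair the groups in the main fits. Differences of line 1 from line 2 correlated across genes at 0.14, 0.19 and -0.20, which cannot show whether lines of the same number share an origin. Alternatives covered normalization, scaling, filters, features, the technical axis, blocks and left-out sets or arrays. A reference of unexpressed genes had 1 measured gene and was not used.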

Additional observations from a re-analysis of the deposited data

Results flagged for a closer look

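Of 85 tests for a value far from the rest of its group (13 over the 6 lines and 72 over the 4 arrays of a set), 4 were met, where chance gives about 1 in 20. The tests over arrays left out CTAG1A, CTAGE1, GAGE10 and SPANXA2-OT1. CTAG2 in high-imatinib line 2, at 7.37, lay far above the next of the 6 resistant lines (6.53). CTAG1A in the same line, at 7.06, lay above the next line (6.53). The first array of naive K gave 10.07 for GAGE12C, below the next array of that set (10.32). The first array of low-imatinib line 1 gave 9.80 for GAGE12J, above the next (9.58). No cause was tested for any of these values.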

How the results depend on the processing

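In all resistant lines against naive, where 1 of the 13 genes passed, 0 passed with the dimmest 40% of genes left out (SAGE1 itself was then not tested), with every feature and with the technical axis taken out, and 4 passed with the set as a random block (GAGE12C, GAGE12H, PRAME and SAGE1). Leaving out 1 set gave 0 to 1. All genes past the threshold numbered 553, against 362 with quantile normalization, 1677 with arrays shifted to 1 median, 777 without the dimmest, 16 with every feature, 3660 with the random block and 12 without the technical axis. In low imatinib against naive the count rose from 0 to 1 (SAGE1) with only the groups compared and with the random block, and was 0 to 1 without 1 set (1 without either high-imatinib line). In high imatinib it was 1 with the random block. In nilotinib it was 1 with arrays shifted to 1 median, 4 with the random block, and 0 to 1 without 1 set (1 without either high-imatinib line or nilotinib line 2). Between naive S and K the 2 became 1 with quantile normalization and 0 to 1 without 1 array. Counts between lines of a resistance stayed within 1.5 times (7 to 8, 9 to 10 and 7 to 9). Leaving out a line of the group gave, in low imatinib against naive, -2.02 without line 1 and 0.34 without line 2 for GAGE12G, -1.28 and 0.24 for GAGE12H, -1.70 and 0.30 for GAGE12J, -2.24 and 0.69 for GAGE13, -1.97 and 0.41 for GAGE2A, and 1.00 and -0.05 for PRAME. In nilotinib against naive it gave 0.26 without line 1 and -2.59 without line 2 for GAGE12G, 0.24 and -2.50 for GAGE12J, 0.45 and -2.73 for GAGE13, and 0.18 and -2.63 for GAGE2A. The replicate block over the 6 resistant lines gave 0 of the 13 genes in each comparison of resistances, as without it. SAGE1 was lower under all 13 alternatives run in the comparison of all lines (-2.48 to -2.04, adjusted p 2.2e-08 to 0.29). The causes of these changes were not tested. Without detection calls, low readings such as GAGE10 and SAGE1 in resistant lines cannot be set against background, and 2 lines a group limit every comparison of groups.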
